A study of Homo sapiens with 6 samples.

Results

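The 10 genes described here belong to the integrated stress response and the unfolded protein response: ATF4, DDIT3, DDIT4, TRIB3, ASNS, CHAC1, SESN2, PPP1R15A, HSPA5 and XBP1. They were taken by name as well-known members of these pathways. No measured value entered the rule, but the genes were chosen with earlier results of these data known. All 10 were found among the 58174 genes with deposited values, and all 10 were among the 12428 genes that passed a filter on low values and were tested. The samples were T24 cells, an established human bladder cancer cell line, carrying a lentiviral shRNA. The control shRNA was scrambled (shRNA-NC, 3 samples), and the other targeted UBC9 (shRNA-UBC9, 3 samples), the only E2 enzyme that joins the small protein SUMO to its targets. Per the study's methods, the sequenced cells carried 1 UBC9 hairpin and were a stable population selected with puromycin, so effects of the hairpin other than on UBC9 cannot be told apart from those of UBC9 loss. The comparison asked which genes change when UBC9 is lowered. Nothing in the labels says that the 3 samples of a group came from separate cultures, and the p-values measure only the spread between these samples, which may be technical.

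Both pathways adjust protein synthesis and folding to stress. In the integrated stress response, kinases sense amino acid shortage, double-stranded RNA, heme shortage or unfolded protein in the endoplasmic reticulum (ER) and phosphorylate the translation factor eIF2α, which slows protein synthesis in general and allows ATF4 mRNA to be translated. ATF4 is a transcription factor that switches on genes for amino acid supply, for the next transcription factor DDIT3 (also called CHOP) and for feedback regulators such as PPP1R15A and TRIB3. In the unfolded protein response, the ER sensors PERK, IRE1 and ATF6 act in parallel, and they raise chaperones such as HSPA5 and the factor XBP1. Because ATF4 is controlled largely in translation and XBP1 through splicing of its mRNA, the gene-level mRNA values used here are not a measure of the activity of either factor.

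The DNA elements through which these factors are known to act were searched on both strands of the promoter window of each gene, which ran from 250 bases before to 50 bases after the start site in RefSeq (GRCh38.p14). They are shown because they divide the 10 genes in a way that uses no expression value. The C/EBP-ATF response element, bound by ATF4 and its partners, was written as TGATGNAAN, where N is any base. It was found in the windows of ASNS and CHAC1, and in 1268 of all 35116 windows (3.61%). The ER stress element, bound by ATF6 with NF-Y, was written as CCAAT, any 9 bases, CCACG. It was found in the windows of HSPA5 and XBP1, and in 27 of all windows (0.0769%). The ER stress element II, written as ATTGG, any base, CCACG, was in the window of 0 of the 10 genes and in 0.0541% of all windows. The matches are given with 5 bases on either side, 5′ to 3′ on the strand of the gene, with the letters of the match in capitals. In CHAC1 the match was on the opposite strand. For XBP1, as for ASNS, the position counts from 1 of its 2 start sites. In ASNS and CHAC1 the stretch overlaps an annotated exon of the gene (GENCODE release 44), and in HSPA5 and XBP1 it overlaps no exon.
ASNS, chr7:97872463-97872481, minus strand, bases -68 to -60 from 1 of its 2 start sites: aggcaTGATGAAACttccc
CHAC1, chr15:40953256-40953274, plus strand, bases -210 to -202: ctgccGTTGCATCActcct
HSPA5, chr9:125241386-125241414, minus strand, bases -66 to -48: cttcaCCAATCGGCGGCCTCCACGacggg
XBP1, chr22:28800598-28800626, minus strand, bases -52 to -34: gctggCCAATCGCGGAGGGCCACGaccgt
The 4 matches lie in 4 separate promoters and share no bases with each other. A match is a run of letters in this window, not evidence of binding in T24 cells.

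All levels below are RPKM, read numbers divided by gene length and by the sample's mapped total, as the authors deposited them. The relative depth of the 6 samples, read from the steps between low RPKM values, lay between 0.945 and 1.21 times that of shRNA-NC replicate 1. KRT7, KRT8, KRT18 and KRT19, keratins of simple epithelia, were detected in all samples and passed lower in shRNA-UBC9, as did KRT17. KRT5, KRT13, KRT14 and KRT20 were at or near 0. Of the urothelial markers, GATA3, PPARG and FOXA1 were detected and passed lower, with log2 fold changes of -0.79, -2.15 and -1.08. EPCAM was low and did not pass, the uroplakins were under 0.2 RPKM, and CDH1 and TP63 were near 0. Of 12 markers of blood, vessel, muscle and stromal cells, 8 were under 0.2 RPKM in every sample, PTPRC, CD3E and PECAM1 among them. Their summed level was 6.15 to 7.90 RPKM in shRNA-NC and 20.2 to 50.4 RPKM in shRNA-UBC9, of which CD68 alone gave 18.6 to 48.4 RPKM. Beside CD68, 0 of these markers passed the test higher and CDH5 and PDGFRB passed it lower. The part of these markers in the results was not tested. Among the 10 genes, shRNA-NC replicate 2 stood apart from the other samples of its group in ASNS, and shRNA-UBC9 replicate 1 in DDIT4. Values without these samples are given where they matter.

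Of the 10 stress genes, 6 were up-regulated in shRNA-UBC9 and 0 were down-regulated, at an adjusted p below 0.05 in limma with Benjamini-Hochberg adjustment over all tested genes. The 6 were SESN2, PPP1R15A, DDIT4, DDIT3, TRIB3 and XBP1. ATF4, ASNS, CHAC1 and HSPA5 did not pass. Among all 12428 tested genes, 18.8% passed higher in shRNA-UBC9 and 18% passed lower. The first 4 of the 6 also had a log2 fold change above 1 and so met the cutoff for differentially expressed genes (DEGs), which 5.2% of all tested genes met in this direction. The median log2 fold change of the 10 genes was 0.79, beside 0.0048 over all tested genes. In the 6 genes that passed, every shRNA-UBC9 sample was above every shRNA-NC sample, a pattern that 25.7% of all tested genes showed. For each of these 6 genes the exact two-sided permutation test gave p = 0.1, the smallest that 3 samples in each group allow.

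**Figure D1:**
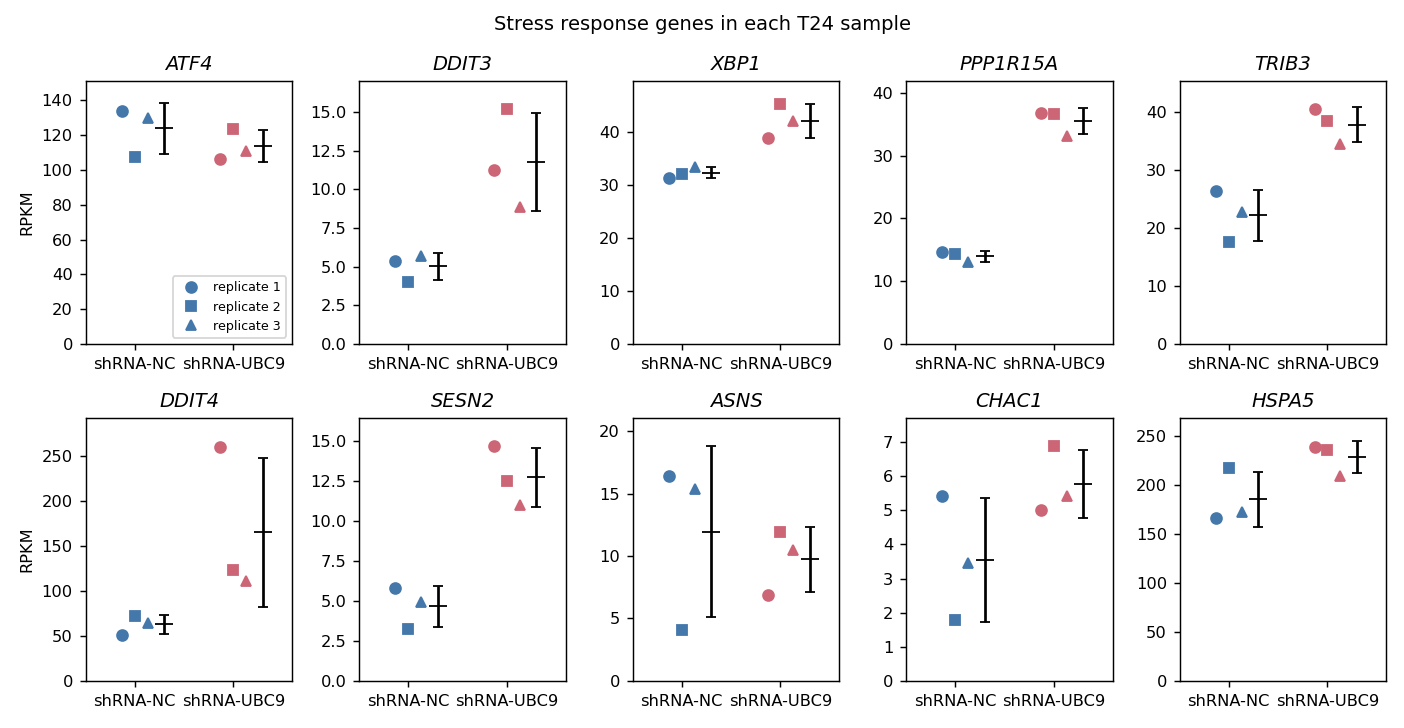
RPKM of each of the 10 stress genes (y axis, linear from 0) in the 3 shRNA-NC and 3 shRNA-UBC9 samples (x axis). Symbols are replicates, and the bars beside them are the mean ± SD (n = 3). The groups do not overlap in DDIT3, XBP1, PPP1R15A, TRIB3, DDIT4 and SESN2, and they overlap in ATF4, ASNS, CHAC1 and HSPA5.

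ATF4 (chr22:39519695-39522683, plus strand), the transcription factor at the centre of the integrated stress response, was at 134, 107 and 130 RPKM in shRNA-NC replicates 1 to 3 and at 106, 124 and 111 RPKM in shRNA-UBC9. The groups overlapped. Their means were 124 ± 14.4 and 114 ± 9.09 RPKM (SD, n = 3 each), and the log2 fold change was -0.12 (SE 0.109, 95% confidence interval -0.37 to 0.13, limma adjusted p = 0.418, exact permutation p = 0.3). The interval lies inside the DEG cutoffs on both sides, and it does not show that the levels are equal. ATF4 was the second most abundant of the 10 mRNAs in shRNA-NC.

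DDIT3 (chr12:57516588-57521737, minus strand), the transcription factor CHOP that lies downstream of ATF4 and is linked to cell death under lasting stress, was at 5.38, 4.04 and 5.69 RPKM in shRNA-NC. In shRNA-UBC9 it was at 11.3, 15.2 and 8.87 RPKM, so its lowest sample there was above the highest control. The mean rose from 5.04 ± 0.875 to 11.8 ± 3.18 RPKM (SD, n = 3 each), which is 2.28-fold in the fit on log2 values, the source of all folds given here (log2 fold change 1.19, SE 0.201, 95% confidence interval 0.73 to 1.65, limma adjusted p = 0.00294). When shRNA-UBC9 replicate 2, the highest sample, was left out, it was 0.99 on the log2 scale and the gene no longer met the DEG cutoff, although it still passed the test. DDIT3 shares 219 exonic bases, 24.3% of its exons, with MARS1 on the opposite strand, and the counting is not stated to use strand. That neighbour, listed as MARS and encoding methionyl-tRNA synthetase, was at 23.2 ± 3.98 RPKM in shRNA-NC and 25.5 ± 3.80 RPKM in shRNA-UBC9 (SD, n = 3 each; log2 fold change 0.13, limma adjusted p = 0.52).

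XBP1 (chr22:28794555-28800597, minus strand), the transcription factor made active when IRE1 splices its mRNA, was at 31.4, 32.1 and 33.5 RPKM in shRNA-NC and at 38.8, 45.2 and 42.1 RPKM in shRNA-UBC9. The spread within both groups was narrow and the groups were apart. The mean rose from 32.3 ± 1.05 to 42.0 ± 3.21 RPKM (SD, n = 3 each), 1.30-fold (log2 fold change 0.37, SE 0.0866, 95% confidence interval 0.18 to 0.57, limma adjusted p = 0.0112). It was the smallest change among the 6 genes that passed, and without shRNA-UBC9 replicate 2 it did not pass (log2 fold change 0.32, limma adjusted p = 0.0523). RPKM over the whole gene sums the spliced and unspliced forms.

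PPP1R15A (chr19:48872212-48876059, plus strand) encodes GADD34, the inducible subunit that brings a phosphatase to eIF2α and so ends the translation block. It was at 14.6, 14.3 and 13.0 RPKM in shRNA-NC and at 36.7, 36.6 and 33.1 RPKM in shRNA-UBC9. Replicates differed by at most 1.12-fold in either group, the narrowest spread in shRNA-UBC9 among the 10 genes. The mean rose from 14.0 ± 0.841 to 35.5 ± 2.05 RPKM (SD, n = 3 each), 2.53-fold (log2 fold change 1.34, SE 0.0880, 95% confidence interval 1.14 to 1.54, limma adjusted p = 4.2e-05), and it stayed between 1.29 and 1.39 on the log2 scale whichever sample was left out. PPP1R15B, the constitutive counterpart that does the same task in unstressed cells, rose from 11.1 ± 0.994 to 16.8 ± 1.15 RPKM (SD, n = 3 each; log2 fold change 0.60, limma adjusted p = 0.00261). The ratio of PPP1R15A to PPP1R15B was 1.39, 1.17 and 1.23 in shRNA-NC and 2.10, 2.09 and 2.13 in shRNA-UBC9. The pair was chosen after the values were seen, and the ratio is a description.

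TRIB3 (chr20:362835-397559, plus strand), a pseudokinase that is induced by ATF4 and CHOP and restrains both ATF4 and the kinase AKT, was at 26.3, 17.6 and 22.7 RPKM in shRNA-NC. Its 3 shRNA-UBC9 values were 40.4, 38.3 and 34.5 RPKM. The groups were apart, and the mean rose from 22.2 ± 4.38 to 37.7 ± 3.00 RPKM (SD, n = 3 each), 1.72-fold (log2 fold change 0.78, SE 0.146, 95% confidence interval 0.45 to 1.11, limma adjusted p = 0.00446). It passed the test with any sample left out, at log2 fold changes from 0.62 to 0.91, each below the DEG cutoff.

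DDIT4 (chr10:72273919-72276036, plus strand), also called REDD1, inhibits the growth kinase mTORC1 and is known to respond to ATF4, hypoxia and glucocorticoids. It was at 51.6, 72.4 and 64.7 RPKM in shRNA-NC and at 261, 124 and 111 RPKM in shRNA-UBC9, where replicate 1 stood far above the other 2. All shRNA-UBC9 samples were above all controls. The mean rose from 62.9 ± 10.5 to 165 ± 83.0 RPKM (SD, n = 3 each), 2.45-fold (log2 fold change 1.29, SE 0.296, 95% confidence interval 0.62 to 1.97, limma adjusted p = 0.0107). When shRNA-UBC9 replicate 1 was left out, it was 0.91 on the log2 scale, below the DEG cutoff, with an adjusted p of 0.00272 in limma. Hypoxia-responsive genes moved with this sample: over 12 tested genes of a list of 14, the median deviation from the group mean on the log2 scale was 0.72 in shRNA-UBC9 replicate 1, -0.28 in replicate 2 and -0.49 in replicate 3, beside 0.77, -0.30 and -0.47 for DDIT4. Their part in the DDIT4 values was not tested. Of the 12 genes, 7 passed higher in shRNA-UBC9 and 0 lower, with log2 fold changes of 5.40 for ANGPTL4, 3.13 for NDRG1 and 1.54 for VEGFA, the secreted factor that drives vessel growth. That count was 9 without shRNA-UBC9 replicate 1, 2 without shRNA-NC replicate 1 and 3 without shRNA-NC replicate 3.

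SESN2 (chr1:28259518-28282491, plus strand), a leucine sensor that restrains mTORC1 and is a known target of ATF4 and p53, had the largest log2 fold change of the 10 genes. It was at 5.79, 3.27 and 4.97 RPKM in shRNA-NC and at 14.7, 12.5 and 11.0 RPKM in shRNA-UBC9. The groups were apart, and the lowest control was again replicate 2. The mean rose from 4.68 ± 1.29 to 12.8 ± 1.84 RPKM (SD, n = 3 each), 2.74-fold (log2 fold change 1.46, SE 0.202, 95% confidence interval 0.99 to 1.92, limma adjusted p = 0.00124), and leaving out any sample kept it between 1.22 and 1.63. The tested genes nearest to SESN2 in their profile, by Euclidean distance of mean-centred log2 values over the 6 samples, were OSCAR (0.138), RAB43 (0.325) and MLLT11 (0.330). OSCAR was at 8.12, 4.81 and 6.93 RPKM in shRNA-NC and at 22.3, 17.6 and 16.9 RPKM in shRNA-UBC9, with the same order of samples within each group as SESN2.

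ASNS (chr7:97851677-97872542, minus strand), asparagine synthetase, is a classic target of ATF4 under amino acid shortage. It was at 16.4, 4.11 and 15.4 RPKM in shRNA-NC and at 6.84, 11.9 and 10.5 RPKM in shRNA-UBC9. The shRNA-NC samples alone differed by 3.99-fold, the widest spread of the 10 genes, and the shRNA-UBC9 samples lay inside their range. The means were 12.0 ± 6.82 and 9.74 ± 2.61 RPKM (SD, n = 3 each), and the log2 fold change was -0.10 (SE 0.482, 95% confidence interval -1.20 to 1.01, limma adjusted p = 0.895). The interval spans the DEG cutoff in both directions, so a change of that size was not detectable with this spread. Without shRNA-NC replicate 2, the low control, the log2 fold change was -0.74 and passed (limma adjusted p = 0.0418). With each of 3 other samples left out in turn it was above 0, at most 0.25, and did not pass. In GENCODE release 44 an unnamed read-through gene model on the same strand covers 99.5% of the ASNS exons, and reads of the pair cannot be told apart.

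CHAC1 (chr15:40952962-40956512, plus strand), which breaks down glutathione and is induced by ATF4, was at 5.40, 1.78 and 3.45 RPKM in shRNA-NC and at 5.0, 6.88 and 5.41 RPKM in shRNA-UBC9. The highest control lay within the range of the shRNA-UBC9 samples, and the 2 other controls lay below it. The means were 3.54 ± 1.81 and 5.76 ± 0.990 RPKM (SD, n = 3 each), and the log2 fold change was 0.81 (SE 0.337, 95% confidence interval 0.033 to 1.58). That interval is not adjusted for the number of genes tested, and the adjusted p of 0.0947 in limma did not pass. The value turned on which control was left out: the log2 fold change was 0.39 without shRNA-NC replicate 2, the lowest control (limma adjusted p = 0.197), and 1.17 without shRNA-NC replicate 1, the highest (limma adjusted p = 0.0207). With shRNA-NC replicate 2 and shRNA-UBC9 replicate 1 both left out it was 0.49 (limma adjusted p = 0.101). ASNS and CHAC1, the genes with a C/EBP-ATF response element in the window shown above, thus were among the 4 genes that did not pass. Of the 2 genes with an ER stress element there, XBP1 passed and HSPA5 did not. Elements outside the window or in other spellings were not searched, and a link between element and change was not tested.

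HSPA5 (chr9:125234853-125241382, minus strand) encodes BiP, the main ER chaperone and a usual readout of ER stress. It was the most abundant of the 10 mRNAs in both groups, at 166, 217 and 172 RPKM in shRNA-NC and at 239, 236 and 209 RPKM in shRNA-UBC9. Only shRNA-NC replicate 2 reached into the range of the other group. The means were 185 ± 27.9 and 228 ± 16.3 RPKM (SD, n = 3 each), and the log2 fold change was 0.31 (SE 0.118, 95% confidence interval 0.036 to 0.58, limma adjusted p = 0.0742). Without shRNA-NC replicate 2 it was 0.43 and passed (limma adjusted p = 0.0159).

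**Figure D2:**
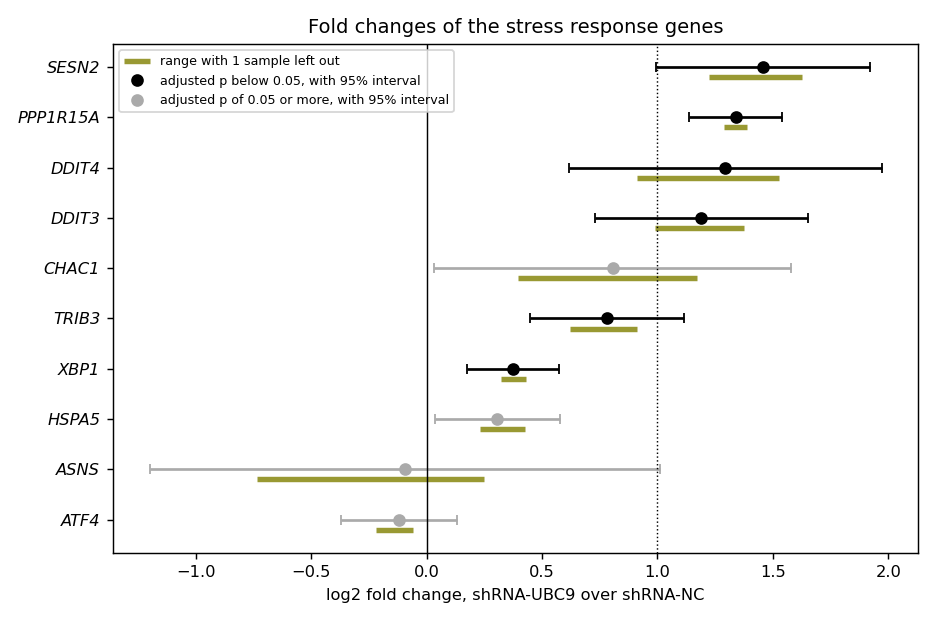
Log2 fold change of each stress gene (x axis, shRNA-UBC9 over shRNA-NC) with its 95% confidence interval from limma (3 samples in each group), in black where the adjusted p was below 0.05 and in grey otherwise. The olive bar is the range with 1 sample left out, and the dotted line marks a log2 fold change of 1. PPP1R15A has a short bar, from 1.29 to 1.39, and ASNS a bar that crosses 0.

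In RPKM, which is scaled to gene length, the order of the mean levels in shRNA-NC was HSPA5, ATF4, DDIT4, XBP1, TRIB3, PPP1R15A, ASNS, DDIT3, SESN2 and CHAC1. The ranges of neighbours in this order did not overlap from HSPA5 down to PPP1R15A, and they overlapped from PPP1R15A to CHAC1. HSPA5 stood at the 98.8th percentile of the tested genes and CHAC1 at the 35.0th. In shRNA-UBC9 the order was HSPA5, DDIT4, ATF4, XBP1, TRIB3, PPP1R15A, SESN2, DDIT3, ASNS and CHAC1. There the genes fell into 3 tiers whose ranges did not overlap: HSPA5, DDIT4 and ATF4 from 106 to 261 RPKM, XBP1, TRIB3 and PPP1R15A from 33.1 to 45.2 RPKM, and the other 4 from 5.0 to 15.2 RPKM. Neighbours within a tier overlapped. DDIT4 and ATF4 exchanged places between the groups, and SESN2 and DDIT3 moved above ASNS.

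Within each group, several of the genes had their lowest or highest value in the same sample. In shRNA-NC replicate 2, 6 of the 10 genes had their lowest value of the group, and the deviation from the group mean on the log2 scale was -1.28 for ASNS, -0.82 for CHAC1, -0.47 for SESN2, -0.31 for TRIB3 and -0.30 for DDIT3. In the same sample DDIT4 and HSPA5 were the highest of the group, at 0.22 and 0.24 above the mean. The median deviation of the 10 genes in this sample was -0.25, beside 0.018 over all tested genes. The amino acid genes linked to ATF4 had a median deviation of -0.16 in this sample and 0.17 in shRNA-NC replicate 1. In shRNA-UBC9, replicates 1 and 2 were each highest for 5 genes and replicate 3 was lowest for 6. Such counts were not made over all tested genes, so they cannot show a trait particular to the 10. With shRNA-NC replicate 2 and shRNA-UBC9 replicate 1 both left out, an alternative added after the data were seen, 8 genes passed: the 6 above, HSPA5 higher (log2 fold change 0.39) and ASNS lower (-0.50).

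**Figure D3:**
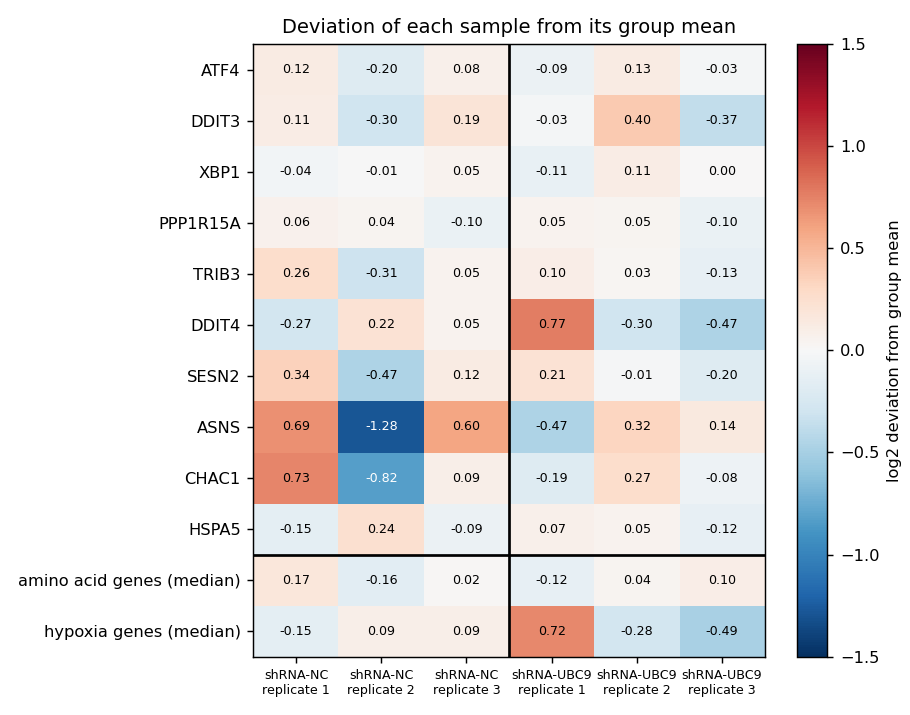
Deviation of each sample (columns) from the mean of its group for each stress gene (rows), on the log2 scale, with the median deviation of 2 gene lists in the bottom rows. Red is above and blue below the group mean. The deepest blue is ASNS in shRNA-NC replicate 2 (-1.28), and in shRNA-UBC9 replicate 1 the red of DDIT4 (0.77) stands with that of the hypoxia genes (0.72).

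The genes around these 10 were taken from pathway lists, and each list is given by its counts beside the 18.8% higher and 18% lower of all tested genes. Of all 12428 tested genes, 6284 had a log2 fold change above 0. The first list, of 19 genes, held eIF2, its exchange factor eIF2B, the eIF2α kinases and their cofactors. It also held PPP1R15B, EIF2A and EIF2D. Of the 19 genes, 2 passed higher (EIF2AK2 and PPP1R15B) and 5 lower, and the median log2 fold change was -0.07. The kinases differed from each other. EIF2AK2, the double-stranded RNA sensor PKR and a known interferon-inducible gene, was at 12.6, 15.6 and 13.6 RPKM in shRNA-NC and at 31.8, 37.6 and 30.0 RPKM in shRNA-UBC9 (log2 fold change 1.24, SE 0.118, limma adjusted p = 0.000245). EIF2AK1, the heme-regulated kinase HRI, fell by 0.38 on the log2 scale (limma adjusted p = 0.00785), and so did KIAA0141, now called DELE1, which carries mitochondrial stress to that kinase (-0.41, limma adjusted p = 0.0116). EIF2AK3, the ER kinase PERK, had a log2 fold change of 0.11 and EIF2AK4, the amino acid sensing kinase GCN2, of -0.22, and neither passed. IMPACT, an inhibitor of GCN2, fell by 0.38. Without shRNA-NC replicate 3, 4 of the 19 genes passed in place of 7. Leaving out any 1 sample also lowered the count over all genes, from 4576 to between 2986 and 4027.

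The next list held genes of amino acid synthesis, one-carbon metabolism and amino acid transport that are linked to ATF4. Of 21 tested genes, 11 passed lower, 0 passed higher and 10 did not pass. The log2 fold change was above 0 in 5 of the 21, and the median was -0.40. The DEG cutoff was met by 4: SLC7A5, CBS, PYCR1 and PHGDH. SLC7A5, the leucine transporter LAT1, was at 268, 226 and 199 RPKM in shRNA-NC and at 46.9, 68.3 and 90.2 RPKM in shRNA-UBC9 (log2 fold change -1.79, SE 0.220, limma adjusted p = 0.0007). CBS, of transsulfuration, fell by 1.19 and PYCR1, of proline synthesis, by 1.10 on the log2 scale. PHGDH, which opens serine synthesis, had its low control in shRNA-NC replicate 2, as ASNS did, at 17.6 RPKM beside 43.0 and 37.8 RPKM in the other controls. The count that passed was 14 without shRNA-NC replicate 2, 6 without shRNA-NC replicate 1 and 7 without shRNA-UBC9 replicate 2. Over all genes the counts in these 3 fits were 3809, 3494 and 3090, in place of 4576. Cytosolic aminoacyl-tRNA synthetases, another group known to follow ATF4, had 3 of 20 genes lower (QARS, LARS and NARS) and 0 higher.

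The list of other factors and effectors linked to ATF4 and CHOP also held relatives of the 10 genes, such as TRIB1, TRIB2 and DDIT4L. Of its 22 tested genes, 10 passed higher, TRIB1 and DDIT4L among them, and 2 lower, with a median log2 fold change of 0.37. GDF15, a stress-induced secreted factor, rose from 6.70 ± 0.944 to 32.5 ± 8.45 RPKM (SD, n = 3 each; log2 fold change 2.24, limma adjusted p = 0.000109). CEBPB, a transcription factor that pairs with ATF4 and CHOP and also drives inflammatory genes, rose from 15.3 ± 1.85 to 70.6 ± 11.4 RPKM (SD, n = 3 each; log2 fold change 2.19, limma adjusted p = 3.06e-05). DDIT4L, a relative of DDIT4, rose by 1.66 on the log2 scale. TRIB2, a relative of TRIB3, and JDP2 fell by 0.93 and 0.84. ATF3, usually raised with DDIT3, had a log2 fold change of 0.57 and did not pass (limma adjusted p = 0.107).

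On the ER side, of 16 tested ER stress sensors and the factors that process or work with them, 4 passed higher and 5 lower. ERN1, the gene of IRE1, was at 0.984, 0.768 and 0.835 RPKM in shRNA-NC and at 2.62, 2.57 and 2.14 RPKM in shRNA-UBC9 (log2 fold change 1.40, SE 0.146, limma adjusted p = 0.000349). ATF6 had a log2 fold change of 0.15 and did not pass, while BAK1 and CREB3 rose by 0.73 and 0.45 on the log2 scale. CREB3L2, MAP3K5 and CREB3L4 fell by 0.89, 0.61 and 0.45. Whichever sample was left out, only 5 or 6 of these genes passed in place of 9.

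ER chaperones, disulfide isomerases and co-chaperones other than HSPA5 had 7 of 24 genes higher and 2 lower, with a median log2 fold change of 0.14. DNAJB9, a co-chaperone of BiP induced through IRE1 and XBP1, rose from 1.82 ± 0.267 to 4.58 ± 1.34 RPKM (SD, n = 3 each; log2 fold change 1.25, limma adjusted p = 0.0025). ERP44 and FKBP14 rose by 0.62 and 0.41. HYOU1, a large ER chaperone usually raised together with HSPA5, fell from 33.8 ± 2.87 to 17.6 ± 2.62 RPKM (SD, n = 3 each; log2 fold change -0.95, limma adjusted p = 0.000933), and TXNDC5 fell by 0.35. The count of 9 was 5 without shRNA-NC replicate 1 or shRNA-UBC9 replicate 2, and 4 without shRNA-NC replicate 3. It was 8 without shRNA-UBC9 replicate 1, 7 without shRNA-UBC9 replicate 3 and 10 without shRNA-NC replicate 2. Among genes of ER-associated degradation and ER import, 8 of 26 passed higher and 1 lower (UBE2J1, -0.26), and 22 of the 26 had a log2 fold change above 0. EDEM1 and SYVN1, which recognise and mark misfolded proteins for degradation, rose by 0.72 and 0.61, and SEC61G, a subunit of the import channel, by 0.57. Whichever sample was left out, fewer genes of this list passed: 5 to 7 in place of 9, the lowest count without shRNA-UBC9 replicate 2.

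**Figure D4:**
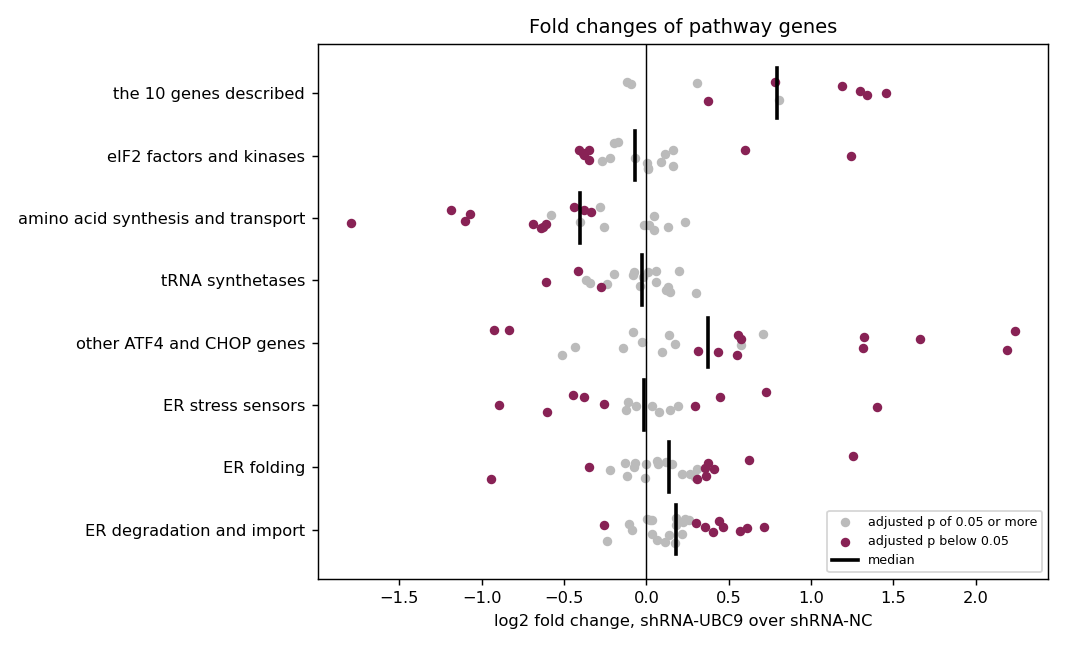
Log2 fold change (x axis, shRNA-UBC9 over shRNA-NC) of every tested gene of the 10 stress genes and of 7 pathway lists (rows), purple where the adjusted p from limma was below 0.05 and grey otherwise, with the median as a black line. The median is 0.79 for the 10 genes and -0.40 for the amino acid genes, and the other lists lie between them.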

How the data were processed

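RNA of 3 shRNA-NC and 3 shRNA-UBC9 samples of T24 cells was sequenced from poly(A) libraries. The authors trimmed the reads, aligned them to GRCh38 with CLC Biomedical Genomics Workbench 4 at default settings, and deposited RPKM for each sample. The annotation release, the strand setting and the treatment of reads with several matches are not given in the sources used here, and absolute depth is unknown. RPKM does not correct for RNA composition, and no count test was run.

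RPKM was taken to log2(RPKM + 0.1). Genes reaching 0.5 RPKM in 3 or more of the 6 samples entered a linear model per gene in limma 3.58.1 (R 4.3.3), with no covariates and with moderated variances that follow expression level, and the Benjamini-Hochberg adjustment ran over all of them. Every adjusted p is from this fit, fold changes use the shifted log2 values, so those of low genes are understated, and 95% intervals are unadjusted. The code was tested on simulated data. Group and replicate came from the labels, and the level of the targeted gene is not reported here. Pseudogenes of ATF4, ASNS and XBP1 were listed at 0 in all samples.

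The 10 genes and all lists were chosen with earlier results of these data known. Named genes were the 10, the eIF2α kinases, PPP1R15B, ERN1, ATF6, ATF3, CEBPB, GDF15, up to 3 passing genes of each list with the highest and 3 with the lowest log2 fold change, the 3 genes nearest to SESN2, and neighbours sharing reads. PHGDH, CD68 and other markers were named after their values were seen. Gene positions are from GENCODE release 44 (GRCh38), and promoter windows, found for all 10 genes, from RefSeq (GRCh38.p14). Alternatives were other pseudocounts, filters and scalings, no trend, a replicate block, an unadjusted threshold and leaving out samples. Python 3.11.15, pandas 2.3.3, scipy 1.17.1 and matplotlib 3.10.9 were used.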

Additional observations from a re-analysis of the deposited data

How the results depend on the processing

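With pseudocounts of 1 and 0.01, no filter, a filter of 1 RPKM in all samples, median scaling, quantile normalization, no intensity trend and a replicate block, the same 6 of the 10 stress genes passed and the same 4 were DEGs, and with an unadjusted p there were 4 DEGs. With 1 sample left out, 5 to 8 genes passed and 3 to 5 were DEGs. Of 150 values of single genes under an alternative, 141 kept their direction and side of the threshold, 5 newly passed, 1 no longer passed and 3 changed sign. The 3 were all ASNS, whose log2 fold change ranged from -0.74 to 0.25 with 1 sample left out: 0.25 without shRNA-NC replicate 1, 0.20 without shRNA-NC replicate 3 and 0.14 without shRNA-UBC9 replicate 1. The cause was not tested. With the replicate number as a block, 6 of the genes passed and 4 were DEGs. Same-numbered samples deviated from their group means with correlations of -0.37, 0.07 and -0.17 over tested genes. For differently numbered pairs the correlations ran from -0.32 to 0.53. With 3 samples in each group, these values cannot show whether same-numbered samples shared a culture or batch. Under the block, 5 in place of 9 ER sensor genes, 5 in place of 9 ER folding genes and 4 in place of 7 hypoxia genes passed. The block also lowered the count over all genes, from 4576 to 3374. Without a filter 2 hypoxia genes passed, and over all genes 4054 of 22896 tested. Over all genes, DEGs numbered 646 higher and 335 lower, 391 and 161 with a pseudocount of 1, and 342 and 210 with the stricter filter, and 2986 genes in place of 4576 passed without shRNA-NC replicate 3. No scaling moved the median of all genes by over 0.1. Absolute depth is unknown, so the counting error of the low genes CHAC1, SESN2 and DDIT3 could not be given.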

Other observations

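SESN2, GDF15 and BBC3 are also targets of p53, and a list of 16 p53 targets without SESN2 gave 5 of 15 tested genes higher and 3 lower in shRNA-UBC9, with a median log2 fold change of 0.08. CDKN1A, the cell cycle inhibitor p21, rose from 9.04 ± 0.395 to 38.5 ± 6.22 RPKM (SD, n = 3 each; log2 fold change 2.07), and BBC3, the cell death protein PUMA, from 1.93 ± 0.366 to 5.0 ± 1.11 RPKM (SD, n = 3 each; log2 fold change 1.32). FAS, FDXR and DDB2 fell by 1.19, 0.81 and 0.58. GDF15, BBC3 and SESN1 stand on both this list and that of the ATF4 and CHOP genes. SESN1 had a log2 fold change of 0.17 and did not pass.

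The ratio of DDIT3 to ATF4 in RPKM was 0.0402, 0.0377 and 0.0438 in the shRNA-NC samples and 0.106, 0.123 and 0.0803 in the shRNA-UBC9 samples. For TRIB3 to ATF4 it was 0.196, 0.164 and 0.174 against 0.380, 0.310 and 0.312. In both pairs every shRNA-UBC9 ratio was above every shRNA-NC ratio. For ASNS to ATF4 the ratios were 0.122, 0.0383 and 0.118 against 0.0644, 0.0961 and 0.0949, which overlapped. The pairs were chosen after the values were seen, and no test was run on them.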
